A study of Mus musculus with 28 samples.

Results

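Tamoxifen was compared with placebo in tibialis anterior (TA) muscle of *Bin1* knockout mice, a model of centronuclear myopathy. The comparison holds 8 of the 28 mice of the series, chosen by genotype and treatment label: 4 mice that received tamoxifen in the diet and 4 that received placebo. All 8 have the genotype *Bin1* mck-/-, in which the muscle creatine kinase promoter named in the label restricts the deletion to muscle, so that other cells of the TA keep the gene. The 4 wild-type (WT) mice of the same cohort received placebo and share the fit, and no WT mouse of this cohort received tamoxifen. The mice were C57BL/6N of 8 weeks. For comparison, tamoxifen and placebo were also set against each other in mice of the other cohort, namely *Dnm2* S619L/+ mice, which carry a point mutation of *Dnm2*, and their WT mice, with 4 mice per group. Mice are numbered 1 to 4 within a group, as in the labels, and values of single mice are given in that order. The labels do not say how mice shared litters or cages, so the p-values measure the spread between these mice only.

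BIN1 (amphiphysin 2) bends membranes and shapes the T-tubules that carry the action potential into the muscle fibre. It acts with the GTPase dynamin 2 and the lipid phosphatase MTM1, and mutations in the genes of these proteins cause centronuclear myopathies, with weak muscles and misplaced nuclei. Tamoxifen binds the estrogen receptors as an agonist or antagonist, depending on the tissue.

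Levels are given as CPM, that is counts scaled to a common library size by TMM. The 8 mice had 24671835 to 33654116 reads on genes each. *Bin1* had 41.3, 36.1, 49.5 and 36.9 CPM in tamoxifen mice, 62.1, 51.6, 52.2 and 58.8 CPM in placebo mice and 539.9 ± 15.7 CPM (mean ± SD, n = 4) in WT mice, so every knockout mouse had less of it than every WT mouse. The fibre markers *Ckm*, *Acta1*, *Mylpf*, *Myh4*, *Myh1*, *Tnnt3*, *Pvalb* and *Actn3* were all measured, with a summed level of 116740.0 to 188760.0 CPM in tamoxifen, 97928 to 136350.0 in placebo and 127930.0 to 161660.0 in WT mice. *Xist* was at 78.8 to 115 against 70.8 to 99.6 CPM in tamoxifen and placebo mice. Tamoxifen mouse 1 had the fewest reads and the largest share of reads assigned to no gene (30.8%, against 22.0% to 25.4% in the other 11 mice). Among the 8 mice, tamoxifen mouse 2 stood apart by genes of bone, described further down, and results that rest on it are given with and without it. Some of these genes also rose with tamoxifen in the *Dnm2* cohort, as given below.

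Of 14841 genes tested, 464 (3.13%) differed between tamoxifen and placebo mice at an adjusted p under 0.05, 225 higher (1.52%) and 239 lower (1.61%). These shares are the reference for all counts of list members called with all mice. At least 2-fold changes were found for 93 of the higher and 114 of the lower genes, and 415 of the 464 genes are protein coding. At an unadjusted p under 0.05 there were 3068 genes. The groups did not overlap for 428 of the 464 genes, and for 9.8% of all genes tested. The number of genes called depended on single mice. It was 1253 (8.3%) without tamoxifen mouse 2, 160 without tamoxifen mouse 3 and 252 without tamoxifen mouse 4, and 179, 198 and 193 without placebo mice 1, 2 and 4. Without tamoxifen mouse 2, 453 of the 464 genes were called again. When only the 8 knockout mice were fitted, 122 genes were called, 119 of them among the 464. Of 71 genes named here as called, 16 kept the call in every alternative fit that tested them (20, and 19 for *AC109619.1*), and no called gene changed direction in any of them.

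**Figure D1:**
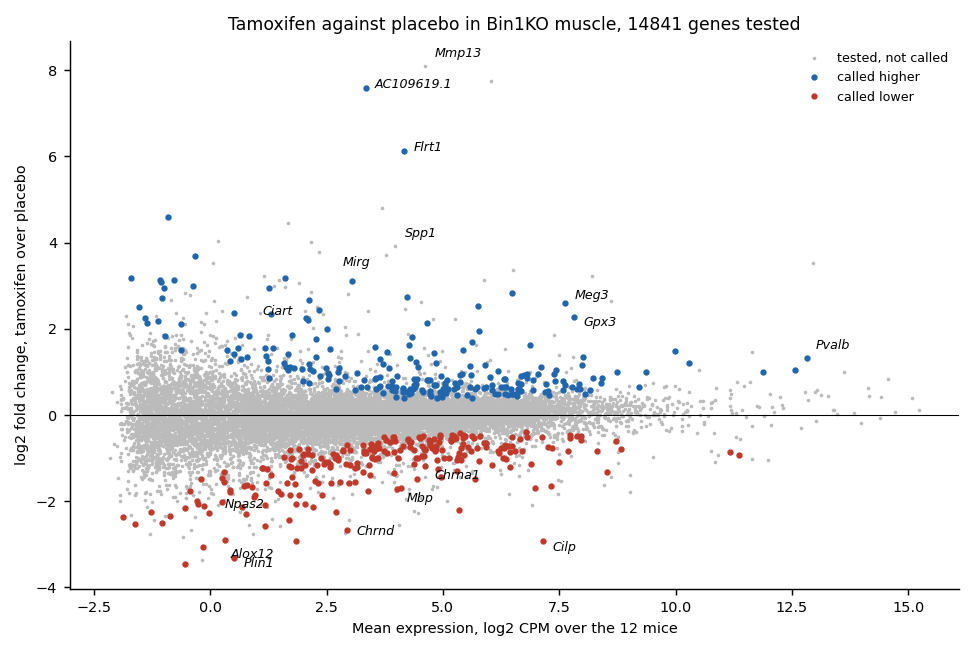
Each point is 1 of the 14841 genes tested, by mean level over the 12 mice of the cohort (log2 CPM, x axis) and log2 fold change of tamoxifen over placebo (y axis). Blue points are the 225 genes called higher, red points the 239 called lower, and *Spp1* and *Mmp13* lie far above 0 in grey, since they were not called.

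Among called genes, the largest rises were those of neighbouring transcripts on chromosome 19. *AC109619.1* (ENSMUSG00000117901), a non-coding transcript, had 27.5, 14.1, 37.6 and 39.9 CPM in tamoxifen mice and 0.148, 0.0966, 0.0633 and 0.0533 in placebo mice (log2 fold change 7.60, SE 0.56, adjusted p = 4.46e-05). *Flrt1* (ENSMUSG00000047787), which encodes a transmembrane protein with leucine-rich repeats and fibronectin domains, had 36.5, 30.1, 104 and 39.2 CPM in tamoxifen mice and 0.977, 0.386, 0.696 and 0.666 in placebo mice (log2 fold change 6.13, SE 0.54, adjusted p = 0.000458). The highest placebo mouse was below 1 CPM for both transcripts and the lowest tamoxifen mouse above 10, and *Flrt1* was highest in tamoxifen mouse 3. WT mice were at 0.566 ± 0.339 CPM and 0.777 ± 0.423 CPM. In the GENCODE M21 annotation, both lie on the same strand within *Macrod1*, which is on the opposite strand, and *Macrod1* itself was higher with a log2 fold change of 0.61 (SE 0.14, adjusted p = 0.0303), a call lost in 5 of 12 leave-one-out fits. *Macrod1* was added after its values were seen. The libraries were strand-specific, and whether the counting used the strand is not given in the sources used here.

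Transcripts of the imprinted *Dlk1*-*Dio3* region on chromosome 12 also rose. Its maternally expressed non-coding RNAs *Mirg* (ENSMUSG00000097391), *Rian* (ENSMUSG00000097451) and *Meg3* (ENSMUSG00000021268) were all higher. *Meg3* had 192, 224, 773 and 441 CPM in tamoxifen mice and 54.4, 65.95, 60.3 and 89.9 in placebo mice (log2 fold change 2.59, SE 0.48, adjusted p = 0.0211), *Rian* had 86.4, 90.8, 424 and 146 CPM in tamoxifen mice and 21.96, 22.5, 25.6 and 34.3 in placebo mice (log2 fold change 2.84, adjusted p = 0.0303) and *Mirg* had 11.9, 8.71, 38.6 and 14.3 CPM in tamoxifen mice and 2.101, 2.03, 2.28 and 1.86 in placebo mice (log2 fold change 3.11, adjusted p = 0.00332). Each was highest in tamoxifen mouse 3, and for none did the groups overlap. *Mirg* kept its call in every alternative fit, whereas those of *Rian* and *Meg3* were lost in 5 of 12 and 4 of 12 leave-one-out fits. The paternally expressed *Dlk1* of the same region had 1.47 to 3.27 against 0.320 to 1.11 CPM and did not pass the test (log2 fold change 1.45, adjusted p = 0.0518), and was added after its values were seen.

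Among other genes with large or well separated rises, *Gpx3* (ENSMUSG00000018339), which encodes a secreted glutathione peroxidase, had 353, 728, 474 and 424 CPM in tamoxifen mice and 82.4, 118, 97 and 112 in placebo mice (log2 fold change 2.27, SE 0.20, adjusted p = 6.64e-05). *Spns2* (ENSMUSG00000040447), which encodes the exporter of sphingosine 1-phosphate, had 70.3, 71.2, 95.1 and 119 CPM in tamoxifen mice and 27.6, 28.5, 24.7 and 28.7 in placebo mice (log2 fold change 1.69, SE 0.15, adjusted p = 4.46e-05). For both genes the tamoxifen mice lay far above placebo mice and above WT mice, at 79.6 ± 11.6 CPM and 30.9 ± 1.45 CPM. *Lrtm2* (ENSMUSG00000055003) had 23.3, 58.6, 42.5 and 18.7 CPM in tamoxifen mice and 4.79, 5.63, 4.59 and 6.37 in placebo mice (log2 fold change 2.73, SE 0.33, adjusted p = 0.00176), with WT mice between both groups at 15.04 ± 2.81 CPM. *Cyp4f39*, a cytochrome P450 gene, and *Rhpn2* had 57.7 to 135 against 7.03 to 27.5 CPM and 3.79 to 22.8 against 0.947 to 3.38 CPM (log2 fold changes 2.52 and 2.44, adjusted p = 0.0168 and 0.0282).

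The largest falls included *Alox12* (ENSMUSG00000000320), which encodes a lipoxygenase of arachidonic acid, with 0.959, 1.395, 0.621 and 0.694 CPM in tamoxifen mice and 6.16, 10.2, 4.87 and 8.31 in placebo mice (log2 fold change -2.91, SE 0.37, adjusted p = 0.0007). *Cilp* (ENSMUSG00000042254), a matrix protein gene of cartilage and fibroblasts, had 57.1, 42.98, 34.5 and 55.7 CPM in tamoxifen mice and 343, 316, 114 and 663 in placebo mice (log2 fold change -2.91, SE 0.47, adjusted p = 0.0134), and the lowest placebo mouse was still above every tamoxifen mouse. Between the groups, *Lrrn2* (0.110 to 1.53 against 1.71 to 6.87 CPM), *Spon2* (0.731 to 5.27 against 9.78 to 16.3 CPM), *Mfap5* (9.39 to 35.3 against 47.3 to 149 CPM), *Rin1* (1.203 to 2.67 against 4.05 to 17.3 CPM) and *Spsb4* (0.256 to 1.48 against 2.96 to 4.102 CPM) were lower in tamoxifen mice, by log2 fold changes of -2.58, -2.26, -2.20, -2.14 and -2.09 (adjusted p = 0.0285, 0.0144, 0.0436, 0.0126 and 0.0294). The smallest p among falling genes belonged to *Ldhd* (ENSMUSG00000031958), which encodes mitochondrial D-lactate dehydrogenase, with 66.6, 59.4, 57.1 and 56.8 CPM in tamoxifen mice and 113, 110.3, 104 and 111 in placebo mice (log2 fold change -0.87, SE 0.09, adjusted p = 0.000273). *Apol6* (ENSMUSG00000033576), an apolipoprotein L gene, followed with 25.8, 31.9, 19.2 and 30.6 CPM in tamoxifen mice and 82.8, 72.5, 72.3 and 75.6 in placebo mice (log2 fold change -1.49, SE 0.16, adjusted p = 0.000286). WT mice had 91.2 ± 4.48 CPM of *Ldhd* and 51.4 ± 10.3 CPM of *Apol6*, above every tamoxifen mouse on average and below the placebo mice. *Alox12*, *Ldhd* and *Apol6* kept their calls in every alternative fit, that of *Cilp* was lost in 1 of 12 leave-one-out fits, and that of *Mfap5* in 9 of 12.

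**Figure D2:**
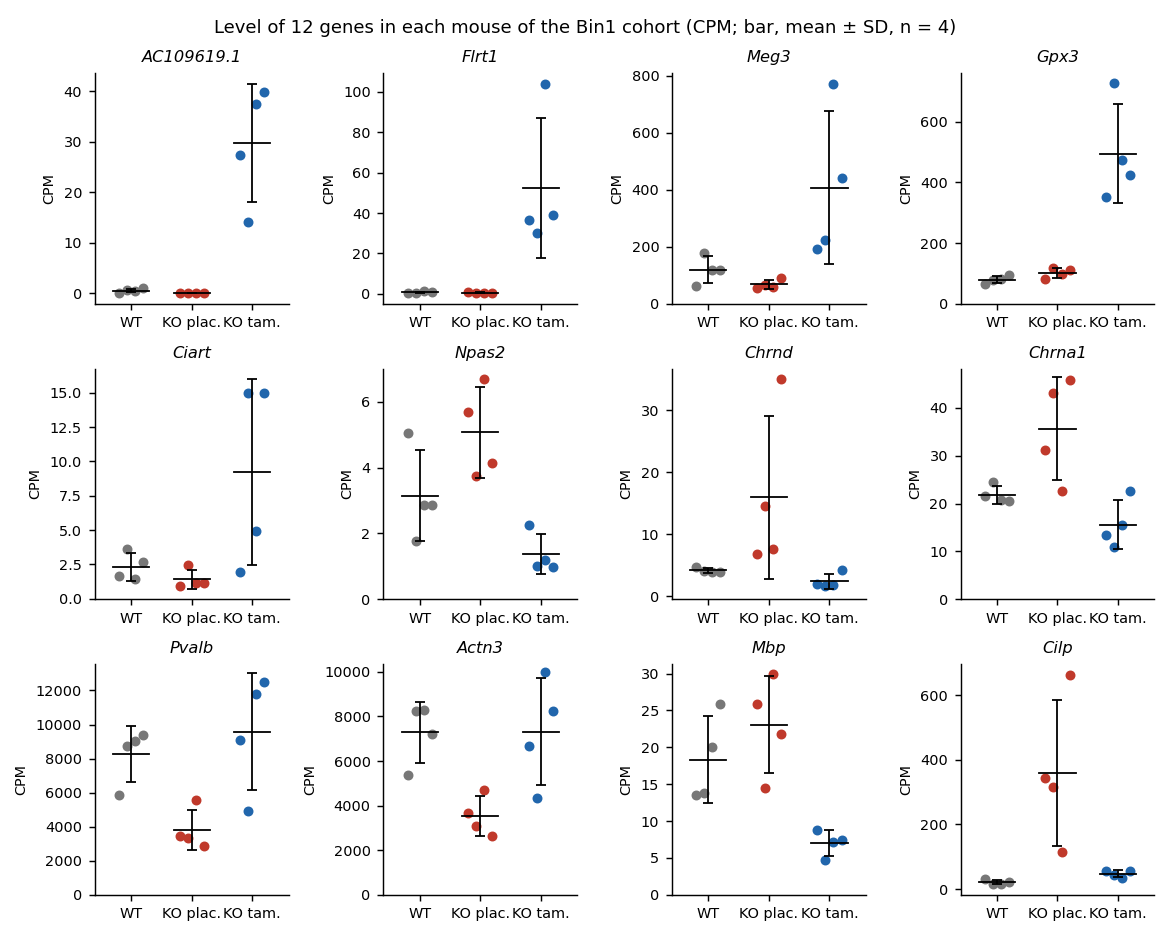
Levels of 12 genes (CPM, linear y axes) in the 4 WT, 4 knockout placebo and 4 knockout tamoxifen mice; each point is a mouse, and bars give mean ± SD (n = 4). *AC109619.1* and *Flrt1* are near 0 outside the tamoxifen mice, while *Pvalb* and *Actn3* in tamoxifen mouse 2 lie close to the placebo mice.

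The genes of centronuclear myopathy were examined next. Of 25 members of this list, 1 was higher and 1 lower, with a median log2 fold change of 0.07 (all genes tested: -0.00066). The higher member was *Dnm3* (ENSMUSG00000040265), which encodes a dynamin better known from neurons, with 5.796, 7.92, 9.35 and 8.44 CPM in tamoxifen mice and 4.02, 4.18, 3.89 and 3.702 in placebo mice (log2 fold change 0.99, SE 0.19, adjusted p = 0.0126). *Bin1* itself was lower in all 4 tamoxifen mice (log2 fold change -0.46, SE 0.12, adjusted p = 0.0466), at levels given above that are a small part of those of WT mice. This call was lost in 11 of 12 leave-one-out fits, and without tamoxifen mouse 2 the log2 fold change was -0.40 (adjusted p = 0.0568). *Dnm2* had 74.7, 66.5, 64.7 and 57.2 CPM in tamoxifen mice and 82.4, 77.3, 70.5 and 73.9 in placebo mice (log2 fold change -0.21, SE 0.10, adjusted p = 0.259), and the groups overlapped. *Mtm1* had 10.7 to 18.04 against 9.43 to 13.1 CPM (log2 fold change 0.18, SE 0.16, adjusted p = 0.549). These fold changes, with their SE, are small beside those of the genes above.

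At the triad, where T-tubules meet the sarcoplasmic reticulum, 1 of 25 genes was called, against 3.13% of all genes tested. *Jph1*, which encodes the junctophilin that ties both membranes together, had 278, 279, 499.6 and 417 CPM in tamoxifen mice and 222, 199, 241 and 152 in placebo mice (log2 fold change 0.86, SE 0.20, adjusted p = 0.0303), next to 327 ± 46.4 CPM in WT mice. Tamoxifen mice 3 and 4 were high and mice 1 and 2 near the placebo mice, and the call was lost in 5 of 12 leave-one-out fits. *Sln*, which encodes the calcium pump regulator sarcolipin, had 7.63, 7.89, 9.47 and 18.1 CPM in tamoxifen mice and 43.8, 43.4, 15.2 and 107 in placebo mice. Its levels overlapped between the groups and did not pass the test (log2 fold change -2.28, SE 0.55, adjusted p = 0.0555). The small GTPase gene *Rrad* had 17.8, 16.9, 3.298 and 7.68 CPM in tamoxifen mice and 49.2, 24.3, 23.4 and 36.7 in placebo mice without overlap and did not pass the test either (log2 fold change -1.54, SE 0.45, adjusted p = 0.0924).

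Of 21 genes of the neuromuscular junction and of the response to denervation, 4 were lower and none higher, with a median log2 fold change of -0.74. The delta subunit of the acetylcholine receptor, *Chrnd* (ENSMUSG00000026251), had 2.005, 1.64, 1.901 and 4.28 CPM in tamoxifen mice and 6.84, 14.5, 7.596 and 35 in placebo mice (log2 fold change -2.67, SE 0.52, adjusted p = 0.0214). Its alpha subunit *Chrna1* (ENSMUSG00000027107) had 13.5, 10.8, 15.5 and 22.6 CPM in tamoxifen mice and 31.2, 43.03, 22.7 and 45.7 in placebo mice (log2 fold change -1.19, SE 0.23, adjusted p = 0.0197). Placebo mice 2 and 4 were highest for both subunits, tamoxifen mouse 4 was the highest of its group, and WT mice lay at 4.18 ± 0.409 CPM and 21.8 ± 1.81 CPM. *Etv5* (ENSMUSG00000013089), which encodes a transcription factor of synaptic nuclei, had 3.399, 3.91, 4.66 and 5.52 CPM in tamoxifen mice and 7.61, 10.4, 11.01 and 10.3 in placebo mice (log2 fold change -1.16, SE 0.17, adjusted p = 0.0033), below WT mice as well (9.66 ± 0.599 CPM). *Prkar1a*, the regulatory subunit of protein kinase A, had 97.5 to 124 against 135 to 219 CPM (log2 fold change -0.74, adjusted p = 0.0143). The myogenic factor gene *Myog* had 11.8, 12.2, 5.199 and 13.8 CPM in tamoxifen mice and 29.6, 25.6, 15.5 and 40.9 in placebo mice and did not pass the test (adjusted p = 0.054). In the leave-one-out fits, the call of *Etv5* was never lost, that of *Chrnd* in 1 of 12 and that of *Chrna1* in 3 of 12.

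Fast fibre genes were 3 higher and none lower among 15 tested (median log2 fold change 0.59). *Pvalb* (ENSMUSG00000005716), which encodes the calcium buffer parvalbumin, had 9106, 4906, 11791 and 12500.0 CPM in tamoxifen mice and 3445, 3313, 5552 and 2879 in placebo mice (log2 fold change 1.33, SE 0.28, adjusted p = 0.0233). *Actn3* (ENSMUSG00000006457), the alpha-actinin of fast fibres, had 6692, 4342, 9974 and 8252 CPM in tamoxifen mice and 3652, 3086, 4722 and 2640.2 in placebo mice (log2 fold change 1.05, SE 0.24, adjusted p = 0.0305), and the fast myosin-binding protein gene *Mybpc2* had 2828 to 6115 against 1498 to 3052 CPM (log2 fold change 0.99, adjusted p = 0.0365). Tamoxifen mouse 2 lay within the range of the placebo mice for all 3 genes, and the other 3 tamoxifen mice were above it. WT mice had 8255 ± 1631 CPM of *Pvalb* and 7288 ± 1361 CPM of *Actn3*. Without tamoxifen mouse 2, 11 of the 15 genes were higher, where 3.91% of all genes were (1.52% with all mice), with the fast myosin *Myh4* at a log2 fold change of 1.03 (adjusted p = 0.0254) against 0.84 with all mice (adjusted p = 0.113). In the same way glycolysis and glycogen genes went from 0 to 9 higher of 27, and proteasome subunits from 0 to 8 of 25. The glycolysis list also held 2 lower genes with all mice and 2 without that mouse. With all mice, 15 glycolysis and 17 proteasome genes were higher at an unadjusted p under 0.05, and DESeq2 called 6 and 4 of them higher. The calls of *Pvalb*, *Actn3* and *Mybpc2* were lost in 5 of 12, 5 of 12 and 9 of 12 leave-one-out fits.

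By edgeR none of 11 slow fibre genes was called (1 at an unadjusted p under 0.05, 0 with DESeq2). The slow myosin *Myh7* had 3.49, 23.1, 124 and 4.496 CPM in tamoxifen mice and 5.39, 12.2, 4.05 and 6.34 in placebo mice, so its log2 fold change of 2.47 (SE 1.22, adjusted p = 0.285) rests on tamoxifen mouse 3. Nor did edgeR call any of 48 nuclear genes of the respiratory chain (median log2 fold change 0.10, 2 at an unadjusted p under 0.05, 0 with DESeq2). Of 30 genes of lysosomes and autophagy none was called by edgeR (median 0.02, 4 at an unadjusted p under 0.05, 2 with DESeq2). Reads of mitochondrially encoded proteins made up 9.10% ± 1.01 of gene counts in tamoxifen and 10.1% ± 0.926 in placebo mice (SD, n = 4), a difference of -1.01 percentage points that did not pass the exact two-sided permutation test (p = 0.171, smallest possible p 0.0286). Of the 13 mitochondrial genes, 6 had 5 reads or fewer, so the share rests on the other 7. The share uses counts without TMM scaling. In the TMM fit 5 of the 7 mitochondrial genes tested had a log2 fold change above 0 (median 0.06), and none was called. The direction thus depends on the scaling.

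Genes of atrophy and growth control gave 3 higher calls among 24 and no lower one (median log2 fold change 0.35, with 1.52% of all genes tested higher). The fit without tamoxifen mouse 2 gave 4 higher and 2 lower calls, and the median was 0.20. *Mstn* (ENSMUSG00000026100), which encodes myostatin, an inhibitor of muscle growth, had 17.5, 24.1, 40.2 and 22.8 CPM in tamoxifen mice and 9.03, 10.8, 15.1 and 6.79 in placebo mice (log2 fold change 1.32, SE 0.27, adjusted p = 0.0207), and WT mice had 22.1 ± 3.11 CPM. *Fbxo32*, which encodes the ubiquitin ligase atrogin-1, had 324, 396, 544 and 628 CPM in tamoxifen mice and 250.3, 309, 244 and 242 in placebo mice (log2 fold change 0.86, SE 0.21, adjusted p = 0.0408), above 288 ± 76.2 CPM in WT mice on average. *Cebpd*, a transcription factor gene induced by glucocorticoids, had 34.04, 27.1, 14.8 and 60.1 CPM in tamoxifen mice and 9.203, 13.8, 8.92 and 6.82 in placebo mice (log2 fold change 1.81, SE 0.37, adjusted p = 0.0282). All tamoxifen mice were above all placebo mice for these genes, and each call was lost in several leave-one-out fits (3 of 12, 8 of 12 and 3 of 12 respectively). The receptor gene *Fgfr4* had 5.93, 5.37, 6.32 and 5.3 CPM in tamoxifen mice and 1.01, 2.77, 3.42 and 1.65 in placebo mice (log2 fold change 1.35, SE 0.28, adjusted p = 0.019), with WT mice at 6.48 ± 0.397 CPM. The calcitonin receptor gene *Calcr*, a marker of resting satellite cells and of osteoclasts, had 0.392, 0.910, 0.970 and 0.548 CPM in tamoxifen mice and 0, 0.0966, 0 and 0 in placebo mice (adjusted p = 0.009), next to 0.527 ± 0.137 CPM in WT mice.

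**Figure D3:**
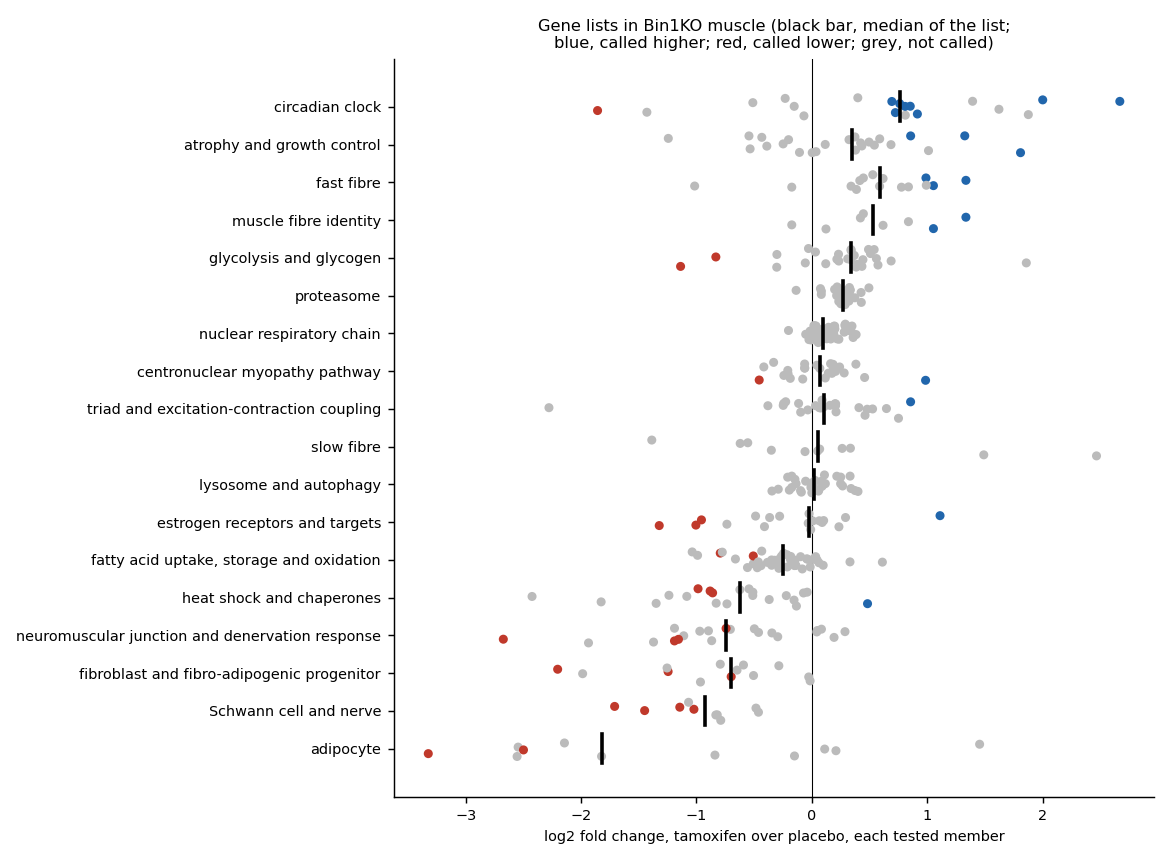
Log2 fold change of tamoxifen over placebo (x axis) for each tested member of 18 gene lists (rows), with all 4 tamoxifen mice; blue points were called higher, red lower, grey not called, and black bars give the median of the list. The circadian clock has the most blue points, and called members of the neuromuscular, Schwann cell, fibroblast and adipocyte lists are all red.

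Of the 47 gene lists, the circadian clock had the largest share of called members: 8 of 19 genes were higher and 1 was lower, with a median log2 fold change of 0.76. In this clock the activators BMAL1 (*Arntl*), CLOCK and NPAS2 bind E-boxes and switch on the *Per* and *Cry* repressors and the output factors. The higher genes included the output and repressor genes *Ciart*, *Hlf*, *Per1*, *Bhlhe41*, *Tef* and *Nr1d2* and the receptor gene *Rora*, and the activator gene *Npas2* was lower. *Ciart* (ENSMUSG00000038550) is on chromosome 3 and *Per1* (ENSMUSG00000020893) on chromosome 11. Their RefSeq promoters (GRCm38.p6, 250 bases before to 50 after the start) are shown because they hold the E-box CACGTG, set in capitals, that clock activators bind. That of *Ciart* lies at chr3:95882179-95882478 on the minus strand with 3 matches, and that of *Per1* at chr11:69098699-69098998 on the plus strand with 1.
Ciart: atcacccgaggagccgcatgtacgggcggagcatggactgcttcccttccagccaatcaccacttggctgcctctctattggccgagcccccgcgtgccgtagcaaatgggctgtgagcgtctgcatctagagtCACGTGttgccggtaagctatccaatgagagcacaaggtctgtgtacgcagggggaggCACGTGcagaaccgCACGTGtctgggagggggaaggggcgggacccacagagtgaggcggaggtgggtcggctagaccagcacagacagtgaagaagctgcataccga
Per1: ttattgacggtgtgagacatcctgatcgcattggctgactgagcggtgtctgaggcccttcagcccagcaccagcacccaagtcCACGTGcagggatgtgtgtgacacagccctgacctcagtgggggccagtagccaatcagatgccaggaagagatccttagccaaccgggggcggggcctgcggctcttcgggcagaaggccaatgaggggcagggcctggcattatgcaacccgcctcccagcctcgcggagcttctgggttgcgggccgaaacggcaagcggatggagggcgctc
Among 16 clock genes with promoters in the table, 5 hold CACGTG in at least 1 window. Over all tested genes with a promoter the share is 11.5% (1248 of 10866), and it is 14.2% for genes called higher and 10.5% for genes called lower. CACGTG reads the same on both strands and was chosen after the values were seen. The palindromic estrogen response element, with 3 bases of any kind between its arms, was in no promoter of 148 genes called higher or 172 called lower and in 1 of 10866 tested, and the sterol element TCACNCCAC in 2.03%, 1.74% and 1.44% of them, searched on both strands.

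*Ciart*, a repressor of the clock, had 1.92, 14.98, 4.93 and 14.98 CPM in tamoxifen mice and 0.888, 2.41, 1.14 and 1.17 in placebo mice (log2 fold change 2.67, SE 0.62, adjusted p = 0.0377). *Hlf*, an output factor gene, had 3.704, 15.9, 10.2 and 6.396 CPM in tamoxifen mice and 2.37, 1.64, 3.35 and 1.54 in placebo mice (log2 fold change 2.00, SE 0.44, adjusted p = 0.029), and *Per1* had 89.7, 173, 120.1 and 151 CPM in tamoxifen mice and 75.1, 98.1, 58.1 and 51.9 in placebo mice (log2 fold change 0.91, SE 0.21, adjusted p = 0.0365). Tamoxifen mouse 1 was the lowest of its group for all 3 genes and close to the placebo mice, whereas mouse 2 was the highest or level with mouse 4. *Npas2* (ENSMUSG00000026077) had 2.27, 1.001, 1.203 and 0.987 CPM in tamoxifen mice and 5.68, 3.73, 6.71 and 4.15 in placebo mice (log2 fold change -1.86, SE 0.35, adjusted p = 0.0113), again with tamoxifen mouse 1 nearest to the placebo mice, and WT mice had 3.14 ± 1.38 CPM. *Arntl* had 20.1, 4.64, 13.4 and 8.81 CPM in tamoxifen mice and 35.9, 26.7, 34.1 and 29.5 in placebo mice without overlap and did not pass the test (log2 fold change -1.43, SE 0.37, adjusted p = 0.0613). The receptor gene *Rora* had 39.05 to 72.3 against 30.3 to 32.6 CPM (log2 fold change 0.76, adjusted p = 0.0282). *Bhlhe41*, a repressor of the activators, had 30.9 to 40.3 against 18.3 to 20.2 CPM, *Tef* had 214 to 339 against 162 to 213 CPM and *Nr1d2* had 56.5 to 95.1 against 44 to 55.6 CPM (log2 fold changes 0.81, 0.72 and 0.69, adjusted p = 0.017, 0.0311 and 0.0428). *Npas2* kept its call in every alternative fit. The call of *Ciart* was lost in 9 of 12 leave-one-out fits, and that of *Nr1d2* in 8, *Per1* in 7 and *Tef* in 6. Those of *Rora*, *Hlf* and *Bhlhe41* were lost in 5, 4 and 1 of them. With *Xist* as a covariate none of these higher genes was called, and with only the 8 knockout mice all but *Bhlhe41* lost the call. The hour at which muscles were taken is not given in the sources used here.

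Among 18 genes of estrogen receptors, related receptors and classical targets, 1 was higher and 3 were lower (median log2 fold change -0.03). *Esr1*, which encodes estrogen receptor alpha, had 18.4, 14.1, 28.4 and 19.3 CPM in tamoxifen mice and 20.03, 19.6, 21.2 and 18.9 in placebo mice (log2 fold change 0.01, SE 0.17, adjusted p = 0.987). The higher gene was *Nrip1*, a corepressor of nuclear receptors, with 25.3, 31.8, 38.4 and 39.3 CPM in tamoxifen mice and 12.8, 23.7, 11.4 and 14.4 in placebo mice (log2 fold change 1.11, SE 0.21, adjusted p = 0.0166). *Rara* (ENSMUSG00000037992), a retinoic acid receptor gene, had 13.6, 16.7, 14.7 and 11.2 CPM in tamoxifen mice and 32.3, 20.6, 34.2 and 26.02 in placebo mice (log2 fold change -1.01, SE 0.17, adjusted p = 0.00702). The estrogen-related receptors *Esrrg* (ENSMUSG00000026610) and *Esrrb*, orphan receptors that do not bind estrogen, had 14.8 to 17.1 against 25.7 to 36.1 CPM and 2.78 to 7.31 against 9.85 to 16.4 CPM (log2 fold changes -0.96 and -1.32, adjusted p = 0.00683 and 0.02). The groups did not overlap for any of these 4 genes, and *Rara* and *Esrrg* kept their calls in every alternative fit.

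Few metabolic genes were called with all mice. *Lpl*, which encodes lipoprotein lipase, and *Cpt2*, a carnitine palmitoyltransferase of fatty acid oxidation, were the 2 called of 42 fatty acid genes. Of all genes tested, 3.13% were called. *Lpl* had 284, 396, 237 and 356 CPM in tamoxifen mice and 541, 606, 623 and 438 in placebo mice (log2 fold change -0.79, SE 0.17, adjusted p = 0.0207), and *Cpt2* had 78.1 to 106 against 115 to 145 CPM (log2 fold change -0.51, adjusted p = 0.0282). Of the 42 genes, 7 had a log2 fold change above 0 (median -0.25). At an unadjusted p under 0.05, 13 were lower and 1 higher, and DESeq2 called 7 lower. Without tamoxifen mouse 2, 8 of the 42 genes were lower, where 4.39% of all genes tested were lower. In the glycolysis and glycogen list, 21 of 27 genes had a log2 fold change above 0 (median 0.34), unlike the next 2 genes. The glucose transporter *Slc2a1* had 5.78 to 10.1 against 11.4 to 18.9 CPM, and *Ldhb*, the heart-type lactate dehydrogenase, had 38.95 to 92.1 against 128 to 183 CPM (log2 fold changes -0.83 and -1.14, adjusted p = 0.0435 and 0.0207). The serine synthesis gene *Psat1* (1.71 to 3.18 against 3.26 to 8.68 CPM) was lower and the chaperone gene *Dnajb9* (22.6 to 34.1 against 17.3 to 22.98 CPM) higher, among 25 stress response genes (log2 fold changes -1.19 and 0.59, adjusted p = 0.0481 and 0.037). *Nqo1*, a quinone reductase gene, had 12.9 to 21.2 against 6.31 to 10.5 CPM (log2 fold change 0.89, adjusted p = 0.0305).

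Of 21 heat shock and chaperone genes, 3 were lower and 1 higher, with a median log2 fold change of -0.62. *Hsph1*, a nucleotide exchange factor of HSP70, had 66.2, 53.7, 49.9 and 40.4 CPM in tamoxifen mice and 97.1, 123, 96.1 and 101 in placebo mice (log2 fold change -0.99, SE 0.22, adjusted p = 0.0282). The small heat shock gene *Hspb6* had 1259 to 1904 against 2423 to 3687 CPM and the HSP70 cochaperone gene *Dnaja1* had 5.56 to 9.72 against 10 to 17.8 CPM (log2 fold changes -0.86 and -0.88, adjusted p = 0.0272 and 0.0376). *Hspb2*, another small heat shock gene, had 95.7 to 127 against 74.5 to 87.7 CPM in the opposite direction (log2 fold change 0.48, adjusted p = 0.0259). The summed level of the list was 5967 to 8402 CPM in tamoxifen mice and 8928 to 13284 in placebo mice, without overlap. WT mice, at 6522 to 11882 CPM, overlapped both groups. The calls of *Hsph1*, *Hspb6*, *Hspb2* and *Dnaja1* were lost in 5, 5, 5 and 6 of 12 leave-one-out fits.

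The muscle also contains nerve, fat and connective tissue, and some markers of each were lower. In bulk muscle, fewer cells of a type cannot be told apart from less RNA per cell. Schwann cells wrap the motor axons in myelin, and 4 of 10 of their genes were lower, with a median log2 fold change of -0.93. *Mbp* had 8.85, 4.701, 7.14 and 7.42 CPM in tamoxifen mice and 25.8, 14.5, 30 and 21.9 in placebo mice (log2 fold change -1.71, SE 0.27, adjusted p = 0.00702) and *Pmp22* had 30.2, 32.9, 24.6 and 23.7 CPM in tamoxifen mice and 54.7, 45.4, 57.2 and 69.3 in placebo mice (log2 fold change -1.02, SE 0.15, adjusted p = 0.00237). *Prx*, another myelin gene, had 2.12 to 5.23 against 7.403 to 11.4 CPM (log2 fold change -1.14, adjusted p = 0.0375). None of these 3 genes overlapped between the groups. The summed level of the list was 54.7 to 67.8 CPM in tamoxifen, 96.7 to 163 in placebo and 95.9 to 144 in WT mice, and its part in the results on neuromuscular genes was not tested. *Mbp* and *Pmp22* kept their calls in every alternative fit, and *Prx* lost it in 7 of 12 leave-one-out fits.

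Of 11 adipocyte genes 2 were lower and none higher, and 3 had a log2 fold change above 0. *Plin1*, the coat protein gene of fat droplets, had 0.828, 0.0607, 0.0388 and 0.256 CPM in tamoxifen mice and 5.83, 1.35, 1.58 and 4.901 in placebo mice (log2 fold change -3.32, SE 0.75, adjusted p = 0.0227), and the beta-3 adrenergic receptor gene *Adrb3* had 0.174, 0.0910, 0.0388 and 0.219 CPM in tamoxifen mice and 1.69, 0.354, 0.728 and 1.36 in placebo mice (log2 fold change -2.50, SE 0.64, adjusted p = 0.0229). *Adipoq*, which encodes adiponectin, had 1.96, 0.303, 0.233 and 0.110 CPM in tamoxifen mice and 6.01, 3.32, 1.804 and 4.98 in placebo mice and did not pass the test (adjusted p = 0.0857). These 3 genes were at 6.01 CPM or less, and WT mice were at 0.279 ± 0.0910 CPM of *Plin1*. The summed level of the list ran the other way, with 2759 to 7593 CPM in tamoxifen, 1194 to 2315 in placebo and 1679 to 4219.9 in WT mice. Most of it was *Car3*, a carbonic anhydrase gene that muscle expresses too, with 2809, 2692, 7548 and 5022 CPM in tamoxifen mice and 1324, 1083, 2233 and 1959 in placebo mice (log2 fold change 1.45, SE 0.40, adjusted p = 0.0688). *Car3*, added after its values were seen, did not pass the test with all mice and was called higher in 5 of 20 alternative fits, with a log2 fold change of 1.64 (adjusted p = 0.034) without tamoxifen mouse 2, when 3 adipocyte genes were lower. Fibroblast genes gave 3 lower calls of 13, namely *Mfap5*, *Cd34* (39.3 to 82.8 against 92.6 to 110.3 CPM) and *Dpp4* (0.987 to 2.05 against 2.47 to 4.86 CPM), with adjusted p = 0.0454 and 0.0487 for *Cd34* and *Dpp4*. These 3 calls were lost in 9, 9 and 8 of 12 leave-one-out fits. *Cnn1*, a contractile gene of smooth muscle, had 2.83, 1.58, 1.24 and 1.43 CPM in tamoxifen mice and 8.91, 4.796, 4.37 and 8.07 in placebo mice (log2 fold change -1.86, SE 0.30, adjusted p = 0.0058), without overlap and in all alternative fits. Of 17 macrophage genes edgeR called none (7 lower at an unadjusted p under 0.05, 4 with DESeq2), and the summed level was 80.7 to 239 CPM in tamoxifen and 208 to 422 in placebo mice. The macrophage receptors *Mrc1* and *Cd163* had 6.94 to 13.2 against 13.1 to 31.3 CPM and 2.92 to 11.4 against 8.46 to 25.6 CPM (adjusted p = 0.0509 and 0.108).

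Results on matrix genes depended on tamoxifen mouse 2. The matricellular gene *Ccn3* was the only one of 26 proteoglycan and TGF-beta matrix genes called with all mice, with 2.09, 1.76, 2.48 and 0.841 CPM in tamoxifen mice and 6.33, 4.699, 5 and 5.75 in placebo mice (log2 fold change -1.57, SE 0.28, adjusted p = 0.00923). Without tamoxifen mouse 2, 12 were lower, where 4.39% of all genes were (1.61% with all mice), and the median log2 fold change of the list went from -0.45 to -1.22. For 18 collagens the calls went from 0 to 2 lower (medians -0.64 and -1.30). Among collagens, 5 were lower with all mice at an unadjusted p under 0.05 and 1 by DESeq2. The aggrecanase gene *Adamts5* (5.96 to 12.1 against 13.4 to 16.8 CPM) and the semaphorin gene *Sema3b* (11.1 to 15.7 against 18.9 to 24.5 CPM) were lower with all mice (log2 fold changes -0.72 and -0.73, adjusted p = 0.0466 and 0.0106).

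In tamoxifen mouse 2, 9 genes were at 10 CPM or more and at least 20 times above each of the other 7 knockout mice, against 1 such gene in tamoxifen mouse 1 and none in the other 6 mice. They were *Ibsp*, *Tnn*, *Mmp13*, *Spp1*, *Sp7*, *Fgfr2*, *Podnl1*, *Prss35* and *Lrrc15*, chosen after their values were seen. *Sp7*, the transcription factor gene that commits osteoblasts, had 0.262, 13.01, 0 and 0 CPM in tamoxifen mice, and the bone matrix gene *Ibsp* had 0.0872, 186, 0 and 0. The collagenase gene *Mmp13* had 1.05, 291, 0.0388 and 0 CPM in tamoxifen mice and 0.503, 0.129, 0.0633 and 0.107 in placebo mice, the osteopontin gene *Spp1* had 0.741, 170.0, 0.349 and 0.110 CPM in tamoxifen mice and 4.44, 0.483, 2.18 and 3.89 in placebo mice, and the osteoclast enzyme gene *Acp5* had 0.872, 49.96, 0.543 and 0.0731 CPM in tamoxifen mice and 3.28, 1.29, 1.84 and 3.596 in placebo mice. *Col1a1*, the main collagen of bone and of many other tissues, had 469, 2429, 405 and 71.7 CPM in tamoxifen mice and 424, 639, 387 and 1429 in placebo mice. The summed level of the bone list was 47.9, 1009.9, 124 and 80.3 CPM in tamoxifen mice and 54.6, 47.8, 54.1 and 57.8 in placebo mice. Mouse 1 lay at the level of the placebo mice, mice 3 and 4 above it and mouse 2 far above all others. In mice 3 and 4 the excess was mostly that of *Col22a1*, a collagen gene of the muscle-tendon junction as well, which had 8.67, 28.3, 90.4 and 48.9 CPM in tamoxifen mice and 8.58, 5.57, 4.72 and 18.4 in placebo mice. With all mice none of *Mmp13*, *Spp1*, *Acp5* and *Col1a1* passed the test (adjusted p = 0.124, 0.269, 0.397 and 0.911). Without tamoxifen mouse 2, *Spp1* and *Acp5* were lower in tamoxifen mice, with log2 fold changes of -2.63 (adjusted p = 0.029) and -2.22 (adjusted p = 0.0382). That mouse was singled out by its high bone genes, *Spp1* among them, so these calls are no independent evidence of a fall. *Kazald1*, a member of the bone list, was called higher, with 6.54 to 9.51 against 2.29 to 5.22 CPM (log2 fold change 1.0, SE 0.24, adjusted p = 0.0326).

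**Figure D4:**
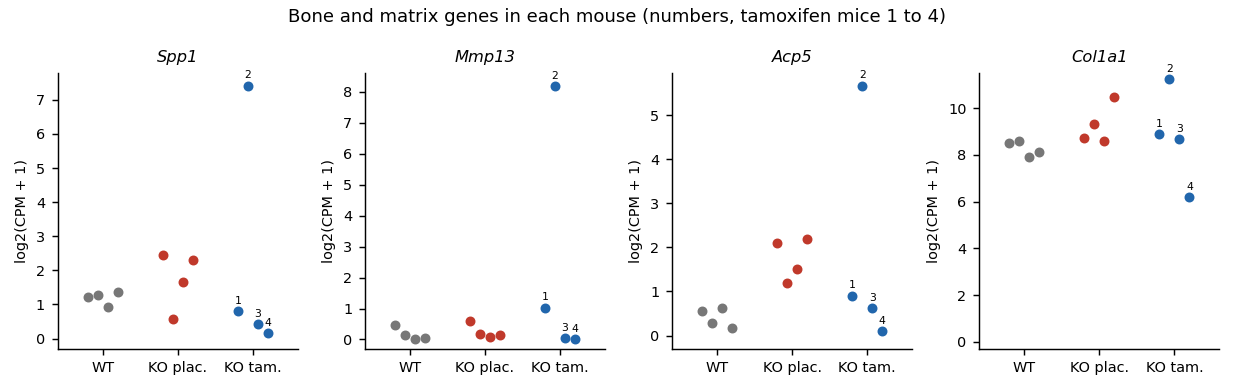
Levels of *Spp1*, *Mmp13*, *Acp5* and *Col1a1*, as log2(CPM + 1), in each mouse of the 3 groups, with the tamoxifen mice numbered. Mouse 2 lies far above all others for the first 3 genes and is the highest of the 12 mice for *Col1a1*.

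The same treatment was measured in the *Dnm2* cohort, which shares no mouse with these 8. Its libraries were made by another protocol (300 ng of RNA and 2 min of fragmentation, against 350 ng and 8 min here), so model and protocol change together and cannot be told apart. In that cohort *Xist* was at 0.0453 to 163 CPM in placebo and 148 to 161 CPM in tamoxifen *Dnm2* S619L/+ mice, and at 0 to 146 and 0.424 to 182 CPM in the placebo and tamoxifen WT mice. *Xist*, the non-coding RNA of the inactive X chromosome, was thus near 0 in some mice of every group there but the tamoxifen *Dnm2* S619L/+ mice, and its part in the comparison of the models was not tested. Tamoxifen changed 1277 genes in *Dnm2* S619L/+ mice (8.27%, with 5.22% higher and 3.05% lower) and 4273 genes in WT mice (27.7%). Of the 464 genes called in *Bin1* knockout mice, 457 were tested there, and 330 (72.2%) moved in the same direction in *Dnm2* S619L/+ mice. This share was not computed over all genes tested in both cohorts, so it has no reference here. Both comparisons called 73 genes, all in the same direction, which are 15.7% of the calls in *Bin1* knockout and 5.72% of those in *Dnm2* S619L/+ mice. *Flrt1* and *AC109619.1* rose in *Dnm2* S619L/+ mice by log2 fold changes of 4.82 (adjusted p = 9.08e-05) and 4.34 (adjusted p = 2.83e-09), and in WT mice by 5.40 (adjusted p = 2.36e-05) and 5.71 (adjusted p = 1.03e-10). *Gpx3* rose by 2.90 (adjusted p = 0.00183) and 3.29 (adjusted p = 0.000245) in these groups, and *Meg3* by 1.57 (adjusted p = 0.00339) and 1.20 (adjusted p = 0.00318). *Ldhd* had -0.90 (adjusted p = 0.000546) and -0.89 (adjusted p = 0.000177), and *Etv5* had -1.11 (adjusted p = 0.0416) and -1.58 (adjusted p = 0.00229). *Chrnd* had -1.755 (adjusted p = 0.0592) and -2.24 (adjusted p = 0.0126), and *Chrna1* had -0.54 (adjusted p = 0.303) and -1.86 (adjusted p = 0.00131). *Alox12* had -2.53 (adjusted p = 0.00183) in *Dnm2* S619L/+ and -0.79 (adjusted p = 0.102) in WT mice. *Fgfr4* had 2.67 (adjusted p = 0.00378) and -0.14 (adjusted p = 0.818). *Spns2* had 0.43 (adjusted p = 0.435) and 0.18 (adjusted p = 0.707), *Rara* had -0.05 (adjusted p = 0.922) and -0.04 (adjusted p = 0.913), and *Ciart* had -0.62 (adjusted p = 0.656) and -0.42 (adjusted p = 0.708), and none of these passed the test. The effects in *Bin1* knockout and *Dnm2* S619L/+ mice differed by 1.23 (adjusted p = 0.0728) for *Spns2*, -0.98 (adjusted p = 0.071) for *Rara* and 3.25 (adjusted p = 0.0816) for *Ciart*, which did not pass the test of the difference either. *Mmp13* was at 13.1 to 1064 CPM in the tamoxifen mice with *Dnm2* S619L/+ and at 588 to 1160.0 CPM in the WT tamoxifen mice, in all 8 of them above the tamoxifen mice 1, 3 and 4 described here. Its log2 fold changes in *Dnm2* S619L/+ and WT mice were 10.1 (adjusted p = 0.000646) and 10.4 (adjusted p = 0.000177). *Acp5* rose by 4.92 (adjusted p = 0.00626) and 7.47 (adjusted p = 0.000291), and *Col1a1* by 2.77 (adjusted p = 0.01) and 4.48 (adjusted p = 0.000291).

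The effect in *Bin1* knockout mice minus that in *Dnm2* S619L/+ mice was tested in a fit of all 28 mice, where 274 of 16036 genes (1.71%) differed, 105 with the effect in *Bin1* knockout mice above (0.655%) and 169 with it below (1.05%), and 62 of them among the 464. This count ranged from 6 to 2195 when single mice were left out (6 without *Dnm2* S619L/+ tamoxifen mouse 2 and 2195 without tamoxifen mouse 2 of the *Bin1* knockout) and was 83 with limma voom. *AC109619.1* and *Lrtm2* rose more in *Bin1* knockout mice, with differences of 3.28 (adjusted p = 0.00651) and 1.73 (adjusted p = 0.0336) on the log2 scale. *AC109619.1* was near 0 in placebo mice, at 0.0533 to 0.148 CPM in *Bin1* knockout and 0.396 to 0.834 in *Dnm2* S619L/+ mice. With tamoxifen it was at 14.1 to 39.9 and 10.9 to 16.7 CPM in these models. The size of its difference thus depends on placebo levels near 0. *Pvalb* and *Actn3* had differences of 2.09 (adjusted p = 0.0184) and 1.39 (adjusted p = 0.0446), since they had log2 fold changes of -0.78 (adjusted p = 0.0759) and -0.36 (adjusted p = 0.328) in *Dnm2* S619L/+ mice. *Npas2*, *Spon2*, *Ccn3* and *Cilp* lay lower in *Bin1* knockout mice, with differences of -3.59 (adjusted p = 0.041), -3.45 (adjusted p = 0.041), -2.55 (adjusted p = 0.0184) and -2.47 (adjusted p = 0.0457). The kinase gene *Mylk4* was called higher in *Bin1* knockout mice (log2 fold change 1.48, SE 0.31, adjusted p = 0.0282), and its difference was 2.14 (adjusted p = 0.041).

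**Figure D5:**
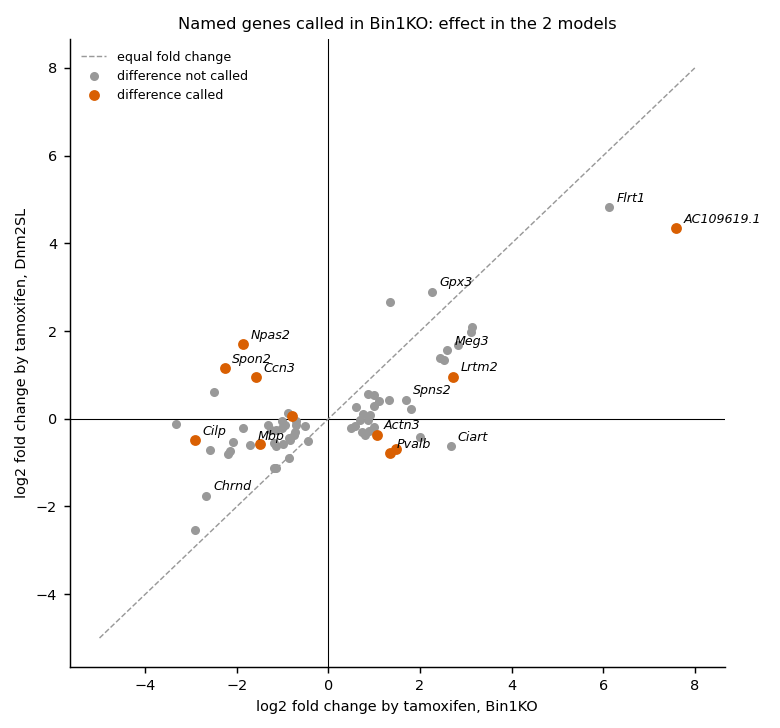
Log2 fold change by tamoxifen in *Bin1* knockout mice (x axis) and in *Dnm2* S619L/+ mice (y axis) for 71 named genes called in *Bin1* knockout mice. Orange points are the 11 whose difference was called, and the dashed line marks equal fold changes. *Flrt1*, *AC109619.1*, *Gpx3* and *Meg3* lie high in both models, and *Pvalb*, *Actn3* and *Ciart* right of the vertical and below the horizontal zero line.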

How the data were processed

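The authors deposited raw read counts by Ensembl gene, which were used here for 12 mice of the *Bin1* cohort and 16 of the *Dnm2* cohort. Polyadenylated RNA had been sequenced with a stranded kit. The submitters' processing notes name bcl2fastq 2.20.0.422, cutadapt 1.10, Bowtie 1.2.2, STAR 2.5.3, HTSeq 0.6.1p1 and the mm39 build, without roles. The 4 lines that name no gene (median 23.9% of counts) were left out. GENCODE M21 named 52083 of 55359 identifiers. The annotation also gave the strand of genes. No gene coordinates are printed other than those of the RefSeq promoters (GRCm38.p6), which were matched by symbol for 73.2% of tested genes.

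The 12 mice of the cohort were fitted together with edgeR 4.0.16 in R 4.3.3 (TMM, default filter on low counts, robust quasi-likelihood test, prior count 2). Adjusted p is that of Benjamini and Hochberg over all genes tested, with a threshold of 0.05. SE is the absolute log2 fold change fitted without the prior count, divided by the square root of F. It can therefore differ somewhat from the SE of the printed value in genes with few reads. The *Dnm2* cohort was fitted separately, and the difference of effects with all 28 mice. Counts were simulated for the comparison of tamoxifen with placebo (14589 genes). The test recovered 24% of 1.5-fold, 84% of 2-fold and 96% of 4-fold changes of 50 genes each. Of its calls, 4.4% were unchanged genes. Changes were placed only in genes with many reads, so recovery at low levels was not measured. All mice of a group were drawn from a common mean, so none stood apart over many genes as tamoxifen mouse 2 did.

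No 2 libraries of the same group were alike within counting error. Genes named, which are protein-coding or lncRNA genes with a symbol other than a Gm or Rik model, are the 8 largest rises and falls among called genes without overlap and with a mean log2 CPM above 1, the 5 smallest p, 3 members of each of 47 gene lists with the smallest p, *Bin1*, *Dnm2*, *Mtm1*, *Esr1* and *Xist*, the 5 largest differences between models in each direction, and members of the bone, cartilage, tendon and fibre lists. Genes outside this rule were added where they share a locus or a list with these and after their values were seen (among them *Macrod1*, *Dlk1*, *Nr1d2*, *Tef* and *Rora*). Members and lists were chosen with earlier results of these data known. Alternatives were DESeq2 1.42.0, RLE normalization, no filter on low counts, a minimum of more than 10 reads in 90% of mice, only the 8 knockout mice, the replicate number as a block, library sizes without mitochondrial genes, *Xist* as a covariate, limma 3.58.1 voom for the difference, and leaving out each mouse. Results on a few genes are not reported here.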

Additional observations from a re-analysis of the deposited data

Results flagged for a closer look

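In groups of 4 mice, a mouse was marked when its gap to the nearest other mouse divided by the range of the group exceeded Dixon's critical value. Of 187 groups whose highest mouse had at least 1 CPM, 17 were marked. Chance marks about 1 in 20 groups of independent, normally distributed values, which CPM of related genes need not be. Some of the genes, *Spp1* among them, were chosen after their values were seen, so their marks are no independent evidence. In tamoxifen mice, mouse 2 stood apart for *Mmp13* (291 CPM), *Spp1* (170.0), *Acp5* (49.96), *Col1a1* (2429), *C1qtnf3* (11.8), *Bhlhe41* (40.3) and the summed bone list (1010 CPM). Mouse 3 stood apart for *Flrt1* (104 CPM), *Myh7* (124) and, on the low side, *Rin1* (1.20) and *Dnajb9* (22.6). Mouse 4 was high for *Chrnd* (4.28 CPM), and mouse 1 was high for *Npas2* (2.27) and *Adipoq* (1.96) and low for *Tef* (213.5 CPM). Among placebo mice, mouse 2 stood apart for *Fbxo32* (309 CPM) and *Hsph1* (123).

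The effect of tamoxifen in *Bin1* knockout mice differed from that in *Dnm2* S619L/+ mice by the test of the difference for 17 named genes. On the log2 scale the effect lay above for *AC109619.1* (3.28), *Lrtm2* (1.73), *Pvalb* (2.09), *Actn3* (1.39), *Atp13a5* (3.06), *Gdf11* (2.19), *Igtp* (3.56) and *Mylk4* (2.14). It lay below for *Cilp* (-2.47), *Spon2* (-3.45), *Apol6* (-0.96), *Npas2* (-3.59), *Lpl* (-0.88), *Ccn3* (-2.55), *Adamts4* (-5.70), *C1qtnf3* (-4.29) and *Dio2* (-3.52). In WT mice of the *Dnm2* cohort, *Apol6* and *Lpl* were lower with tamoxifen, with log2 fold changes of -0.75 (adjusted p = 0.00559) and -1.06 (adjusted p = 0.000291). *Cilp*, *Npas2*, *Ccn3*, *Adamts4*, *C1qtnf3* and *Dio2* were called higher in those WT mice, by 1.39 (*Ccn3*) to 4.63 (*C1qtnf3*). *Atp13a5*, *Gdf11*, *Igtp*, *Adamts4*, *C1qtnf3* and *Dio2* were not called between tamoxifen and placebo in *Bin1* knockout mice (adjusted p = 0.107, 0.307, 0.319, 0.0613, 0.784 and 0.231). In *Dnm2* S619L/+ mice their log2 fold changes were -1.67 (adjusted p = 0.00346), -1.61 (adjusted p = 0.00581), -3.26 (adjusted p = 0.0243), 4.08 (adjusted p = 0.00807), 4.68 (adjusted p = 0.000546) and 2.66 (adjusted p = 0.00626). *Adamts4* encodes an aggrecanase, *Dio2* the deiodinase that activates thyroid hormone, and *Igtp* an interferon-inducible GTPase whose reads can be shared with close copies. The *Igtp* difference rests on *Dnm2* S619L/+ placebo mice at 11.5 to 217 CPM, the second highest at 13.2, against 6.14 to 6.896 in the tamoxifen mice, and was not refitted without the highest mouse.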

How the results depend on the processing

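With all 464 calls as the reference (225 higher, 239 lower), DESeq2 called 1223 genes (619 higher, 604 lower, 461 of the 464 among them), the fit of only the 8 knockout mice 122 (50 and 72), and *Xist* as a covariate 150 (54 and 96). RLE normalization, no filter, the filter on more than 10 reads in 90% of mice and library sizes without mitochondrial genes gave 456, 566, 478 and 462. Leaving out 1 mouse gave 160 to 1253 calls, 70 to 590 higher and 86 to 663 lower. Both groups carry replicate numbers 1 to 4, which were not found to pair the mice. Deviations of same-numbered mice from their group means had correlations of -0.063, -0.096, 0.224 and -0.239, and 1 mouse of 4 in each group correlated best with its own number. The replicate block adds the number to the fit, and with it as a block in the 8 knockout mice 152 genes were called (56 higher, 96 lower). The difference between models counted 274 genes, 492 with the filter on more than 10 reads and 83 with limma voom, and 6 to 2195 when 1 mouse was left out. The difference in mitochondrial share stayed between -1.38 and -0.592 percentage points without single mice and was -0.947 over all counted reads, and did not pass the test in any of these. Of the 71 named genes called, 55 lost the call in at least 1 alternative and none changed sign, and of 25 not called 13 gained a call in the same direction and 15 in either, *Spp1* and *Acp5* being called lower without tamoxifen mouse 2. Signs turned for genes not called. *Esr1* had log2 fold changes of -9.07e-05 without the filter, -0.034 with the replicate block and -0.207 to 0.146 when 1 mouse was left out. Without tamoxifen mouse 2, *Spp1*, *Acp5*, *Col1a1* and *C1qtnf3* had -2.63, -2.22, -1.19 and -1.12, and with the replicate block -1.15, -0.998, -0.252 and -0.239. Their highest values when 1 mouse was left out were 4.34, 2.75, 0.804 and 0.733. *C1qtnf3* had -0.14 with *Xist* as a covariate. Why these settings differ was not tested, except that the block and the smaller fits leave fewer degrees of freedom. Medians of the gene lists described kept their sign under RLE, DESeq2, no filter and mitochondrial exclusion, and the median of all genes moved by less than 0.1 on the log2 scale. Depth was at least 24671835 reads on genes in each mouse and limits genes near 1 CPM, such as *Calcr* and *Adrb3*.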
